A study of Mus musculus with 15 samples.

Results

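The genes described here are 38 mouse genes of the interferon response and of antigen presentation, followed in crypts of the small intestine after antibody blockade of Notch receptors, with and without blockade of Lrp6. They were taken from a list of symbols in 3 sets: 21 interferon-stimulated genes, 10 genes of MHC class I presentation and 7 of MHC class II presentation. A probe was assigned to a gene through the accession in the array files, and where a gene had several probes the brightest in red, by its mean over the 15 arrays, was used. Of the 38, 36 had a probe and all 36 passed the filter on dim probes, which is 19 of 21 interferon-stimulated genes, 10 of 10 class I genes and 7 of 7 class II genes. Mx1 and Mx2 are not analysed here. The 36 stand among 23939 features tested.

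Mice were 6 to 8 weeks old and crypts were taken 24 h after treatment. The first group received blocking antibodies to Notch1 and Notch2 together with 30 mg/kg of an antibody to Lrp6, a co-receptor for Wnt ligands, and is called N1N2 plus Lrp6. The second received the Notch1 and Notch2 antibodies alone and is called N1N2. The third received an IgG control antibody and is called control, although the series design describes these animals as untreated. The labels give the Notch antibodies as 1 mg/mL, which is a concentration, so the amount per animal is not known here. Each group had 5 arrays. The design calls them biological replicates, but the sources do not say if 1 animal or several went into each array, so the p-values measure only the spread between these arrays. Strain and sex are not stated in the sources used here.

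Interferons are secreted proteins that bind receptors at the cell surface and, through Jak kinases and Stat proteins, switch on antiviral and signalling genes. Type I and type III interferons act through a complex holding Stat2 and Irf9 that binds the interferon-stimulated response element, and interferon gamma acts through the gamma-activated site. MHC class I molecules show peptides from inside the cell to CD8 T cells and are made by nearly all cells, whereas MHC class II molecules show peptides from ingested material to CD4 T cells. Intestinal epithelium is known to carry class II molecules as well, and the master regulators of the class I and class II genes are Nlrc5 and Ciita.

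The measured quantity is the log2 ratio of crypt RNA (Cy5, red) over a universal mouse reference RNA (Cy3, green) on 2-colour arrays, so a level is relative to that reference for that probe and levels of different genes are not set against each other. Between 57.2% and 79.8% of spots per array were well above background in red. Replicates 1 to 4 of N1N2 plus Lrp6 were the 4 dimmest arrays by this count (57.2, 63, 63.4 and 66.9%), and replicate 5 had 73.6%, against 70.1 to 77.2% on N1N2 arrays and 71.1 to 79.8% on control arrays. No spot was flagged as saturated in red, and saturation in green was not read. Of the 36 genes, 35 were well above background on all 15 arrays. Ifit2 was so on 2 N1N2 plus Lrp6, 3 N1N2 and 5 control arrays. The number of arrays limits the precision. The arrays lay on 6 slides. Only 1 slide held more than 1 group, with N1N2 replicates 1 and 2 and control replicates 4 and 5. No slide held both N1N2 plus Lrp6 and N1N2 arrays, so slide and treatment cannot be told apart by a block in that comparison. The whole crypt RNA was measured, so fewer cells of a type and less RNA per cell cannot be told apart.

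Across the whole module the differences between groups were small. No gene differed by more than 1.49-fold between N1N2 plus Lrp6 and N1N2 crypts, by more than 1.35-fold between N1N2 and control crypts, or by more than 1.44-fold between N1N2 plus Lrp6 and control crypts. Those limits hold for the reported processing. With scanner-flagged spots kept, H2-Aa differed by 1.11 on the log2 scale (2.16-fold, adjusted p = 0.081) and Ciita by 0.78 (adjusted p = 0.055) between N1N2 and control, and H2-Aa by 0.89 (1.86-fold, adjusted p = 0.20) between N1N2 plus Lrp6 and control. Within the slide that held both groups, B2m differed by 0.70 (1.63-fold, adjusted p = 0.13) between N1N2 and control. The 3 comparisons come from one limma fit with Benjamini-Hochberg adjustment over all features, and the N1N2 arrays enter both of the comparisons the design names. Between N1N2 plus Lrp6 and N1N2 crypts 4 of the 36 genes changed: Ifit3 and Psmb9 rose, and Stat2 and H2-D1 fell. That is 2 of 36 in each direction, where 9.44% of all features rose and 7.26% fell. Between N1N2 and control crypts none of the 36 passed an adjusted p of 0.05, where 6.57% of all features rose and 5.15% fell, and 5 of 36 (13.9%) had an unadjusted p under 0.05 in limma, against 26.2% of all features. Between N1N2 plus Lrp6 and control crypts none passed either, where 0.221% of all features rose and 0.155% fell, and 7 of 36 (19.4%) had an unadjusted p under 0.05, against 13% of all features.

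**Figure D1:**
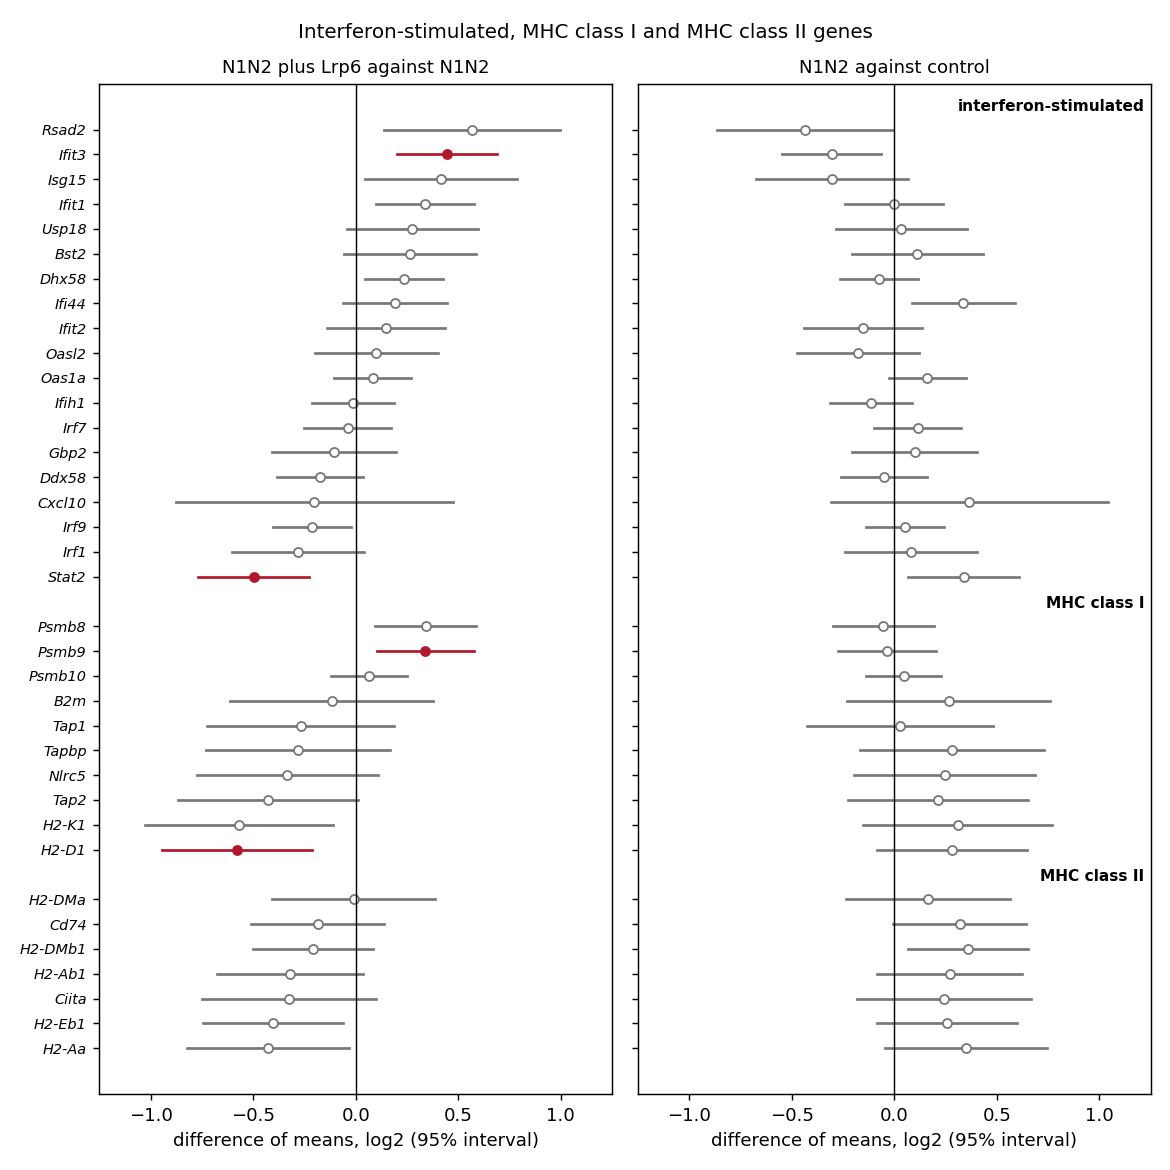
Difference of group means on the log2 scale (horizontal axis) with its 95% interval for each of the 36 genes, in N1N2 plus Lrp6 against N1N2 crypts on the left and N1N2 against control crypts on the right. Filled red points passed an adjusted p of 0.05; the 4 are Ifit3, Psmb9, Stat2 and H2-D1, all on the left, and no difference exceeds 1.49-fold in the reported processing.

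The 95% intervals reflect the spread between arrays in the reported processing. They do not cover slide or the choice of processing. Between N1N2 plus Lrp6 and N1N2 crypts the interval lay within 2-fold for 35 of 36 genes, H2-K1 being the exception, and within 1.5-fold for 17. Between N1N2 and control crypts it lay within 2-fold for 35 of 36, with Cxcl10 the exception, and within 1.5-fold for 19. For N1N2 plus Lrp6 against control crypts all 36 lay within 2-fold and 27 within 1.5-fold.

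Ifit3, an interferon-induced protein with tetratricopeptide repeats that limits viral replication, was the gene whose change held most widely. Its log2 ratios were 0.21, -0.09, -0.46, -0.50 and -0.20 on N1N2 plus Lrp6 arrays, -0.61, -0.63, -0.64, -0.72 and -0.67 on N1N2 arrays, and -0.43, -0.29, -0.30, -0.20 and -0.53 on control arrays. Every N1N2 array lay below every array of both other groups, while the N1N2 plus Lrp6 and control arrays overlapped. In N1N2 plus Lrp6 crypts Ifit3 rose by 0.45 (SE 0.11, 1.36-fold, adjusted p = 0.015) over N1N2 crypts. It passed the threshold under all 29 alternative settings of that comparison, with differences from 0.34 to 0.52. Many of these settings, such as leaving out a control array, leave the difference itself unchanged. None tells slide from treatment. Against control, the N1N2 difference was -0.30 (SE 0.11) with an adjusted p of 0.097, and within the shared slide it was -0.26 (adjusted p = 0.32). Replicate 1 of N1N2 plus Lrp6 was the highest array and the dimmest one. Without it the difference from N1N2 was 0.34 (adjusted p = 0.026).

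Stat2 is a partner of Irf9 in the complex that binds the interferon-stimulated response element. Its log2 ratios were 0.85, 0.78, 1.05, 0.78 and 0.76 on N1N2 plus Lrp6 arrays, 1.21, 1.46, 1.18, 1.79 and 1.07 on N1N2 arrays, and 0.86, 0.99, 1.19, 1.21 and 0.77 on control arrays. All 5 N1N2 plus Lrp6 arrays lay below all 5 N1N2 arrays, and control arrays overlapped both groups. Stat2 fell by 0.50 on the log2 scale in N1N2 plus Lrp6 crypts (SE 0.13, 1.41-fold lower, adjusted p = 0.015). The direction was the same under all 29 alternatives and the call held under 27. It was lost with median centring in place of loess (-0.26, adjusted p = 0.45) and with arrays scaled to each other (-0.39, adjusted p = 0.053). Between N1N2 and control crypts the difference was 0.34 (SE 0.13, adjusted p = 0.098).

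**Figure D2:**
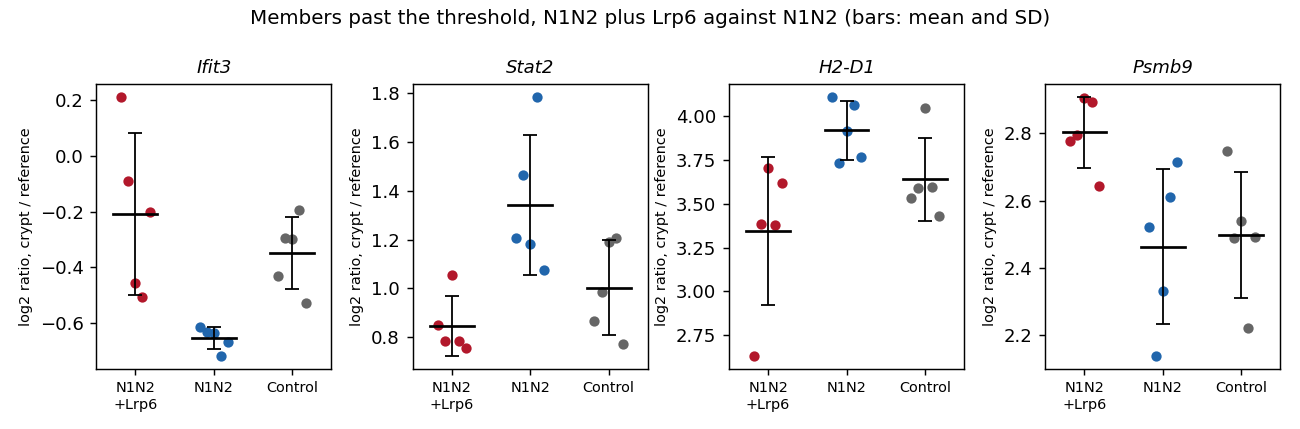
Log2 ratio of crypt over reference RNA (vertical axis, a separate scale per gene) on each of the 5 arrays of N1N2 plus Lrp6, N1N2 and control crypts, with the mean and SD as bars. N1N2 plus Lrp6 and N1N2 arrays do not overlap for Ifit3, Stat2 and H2-D1, and overlap for Psmb9.

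The promoters of these genes are shown because the interferon-stimulated response element is known to control many interferon-induced genes. The genes were not chosen by it. RefSeq windows on GRCm38.p6, from 250 bases before to 50 bases after the start, were found for 29 of the 36 genes (17 interferon-stimulated, 8 class I and 4 class II). The element was searched as GAAANNGAAA on both strands. It was present in 11 of 17 interferon-stimulated windows, 1 of 8 class I windows (B2m) and 0 of 4 class II windows, and 3.44% of 32851 promoters of the same length hold it. In the stretches below, capitals mark the match, and neighbouring matches that overlap form 1 run of capitals.
Ifit3 (chr19:34583353-34583436, plus strand): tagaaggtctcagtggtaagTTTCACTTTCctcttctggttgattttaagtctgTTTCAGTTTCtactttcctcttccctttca
Stat2 (chr10:128270256-128270305, plus strand): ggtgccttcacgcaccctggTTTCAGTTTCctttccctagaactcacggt
Isg15 (chr4:156200855-156200916, minus strand): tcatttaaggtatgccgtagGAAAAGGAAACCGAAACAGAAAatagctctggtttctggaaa
Ifit1 (chr19:34640765-34640833, plus strand): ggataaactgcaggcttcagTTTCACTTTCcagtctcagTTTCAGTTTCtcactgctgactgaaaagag
Rsad2 (chr12:26456543-26456592, minus strand): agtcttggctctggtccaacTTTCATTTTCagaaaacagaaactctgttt

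Ifit3 and Stat2, which moved in opposite directions between N1N2 plus Lrp6 and N1N2, both hold a match, Ifit3 with 2 and Stat2 with 1. Isg15 holds 3 overlapping matches. A match describes these letters only and says nothing of the factor or of a cause. The gamma-activated site, searched as TTCNNNGAA, was in 4 of 17 interferon-stimulated, 1 of 8 class I and 0 of 4 class II windows, and in 8.3% of all promoters. The letters TGGGAA, the core read by the Notch effector Rbpj, were in 4 of 17, 6 of 8 and 1 of 4 windows, and in 25.6% of all promoters.

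Among the regulators of the interferon-stimulated set, Irf1, a factor induced by interferon gamma, had log2 ratios of 3.08, 2.58, 2.82, 2.91 and 3.26 on N1N2 plus Lrp6 arrays, 3.02, 3.44, 3.11, 3.62 and 2.88 on N1N2 arrays, and 2.94, 3.23, 3.21, 3.37 and 2.91 on control arrays. The 3 groups overlapped throughout. The difference was -0.28 (SE 0.15, adjusted p = 0.24) between N1N2 plus Lrp6 and N1N2, and 0.08 (SE 0.15, adjusted p = 0.79) between N1N2 and control. Irf7, the factor that amplifies type I interferon production, had 0.81, 0.78, 1.06, 0.71 and 1.15 on N1N2 plus Lrp6 arrays, 1.10, 0.86, 0.98, 0.93 and 0.84 on N1N2 arrays, and 0.66, 0.77, 1.08, 0.87 and 0.76 on control arrays. These groups overlapped too, with differences of -0.04 (SE 0.10, adjusted p = 0.85) and 0.11 (SE 0.10, adjusted p = 0.51) in the same 2 comparisons. Irf9, the DNA-binding subunit that joins Stat2, was lower than the N1N2 mean on 5 of 5 N1N2 plus Lrp6 arrays, by -0.21 (SE 0.09, adjusted p = 0.12).

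Isg15 is a ubiquitin-like protein that is attached to other proteins in interferon-treated cells. Its log2 ratios were 0.38, 0.18, -0.09, -0.62 and -0.13 on N1N2 plus Lrp6 arrays, -0.18, -0.59, -0.85, -0.26 and -0.48 on N1N2 arrays, and 0.11, -0.44, -0.06, -0.39 and -0.06 on control arrays. N1N2 plus Lrp6 arrays 1 and 2 were the 2 highest of the 15, and the groups overlapped. The difference from N1N2 was 0.41 (SE 0.17, adjusted p = 0.12), and the second Isg15 probe gave 0.60. The other interferon-stimulated effectors went several ways. Relative to N1N2 crypts, Rsad2 (viperin) differed by 0.57 (SE 0.20, adjusted p = 0.068), Ifit1 by 0.34 (SE 0.11, adjusted p = 0.051), Usp18, which removes Isg15 from proteins, by 0.28 (adjusted p = 0.24), and the tetherin gene Bst2 by 0.26 (adjusted p = 0.27). Of the cytosolic RNA sensors, Dhx58 differed by 0.23 and its arrays did not overlap those of N1N2 (adjusted p = 0.088), Ddx58 by -0.17 (adjusted p = 0.27) and Ifih1 by -0.01. The second Ddx58 probe had the opposite sign, at 0.08. The remaining genes of the set differed from N1N2 by 0.15 for Ifit2, 0.08 for Oas1a and 0.10 for Oasl2, both of the oligoadenylate synthetase family, and -0.11 for Gbp2, a guanylate-binding protein, and none of these passed.

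The interferon-stimulated genes were split in sign in the reported processing, and the split moved with the normalization. The median difference was 0.10 between N1N2 plus Lrp6 and N1N2 crypts, with 11 of 19 genes above 0 and 8 below, beside a median of -0.001 over all features. With median centring it was 0.27, with 15 of 19 above 0. Between N1N2 and control crypts the median was 0.04 with 10 above and 9 below, and it took the other sign with median centring (-0.15, with 16 of 19 below 0) and with arrays scaled to each other (-0.03). The range over the 19 genes was -0.50 to 0.57 in N1N2 plus Lrp6 against N1N2 and -0.43 to 0.37 in N1N2 against control. Ifi44, an interferon-induced protein, was highest in N1N2 plus Lrp6 (-2.97 to -2.52), then N1N2 (-3.26 to -2.67), then control (-3.47 to -3.01). Its N1N2 plus Lrp6 arrays did not overlap the control arrays (0.53, SE 0.12, adjusted p = 0.072). The chemokine gene Cxcl10 had the widest interval, -0.31 to 1.04 for N1N2 against control, and N1N2 replicate 4 (0.14) stood above the other N1N2 arrays (-1.63 to -0.84).

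**Figure D3:**
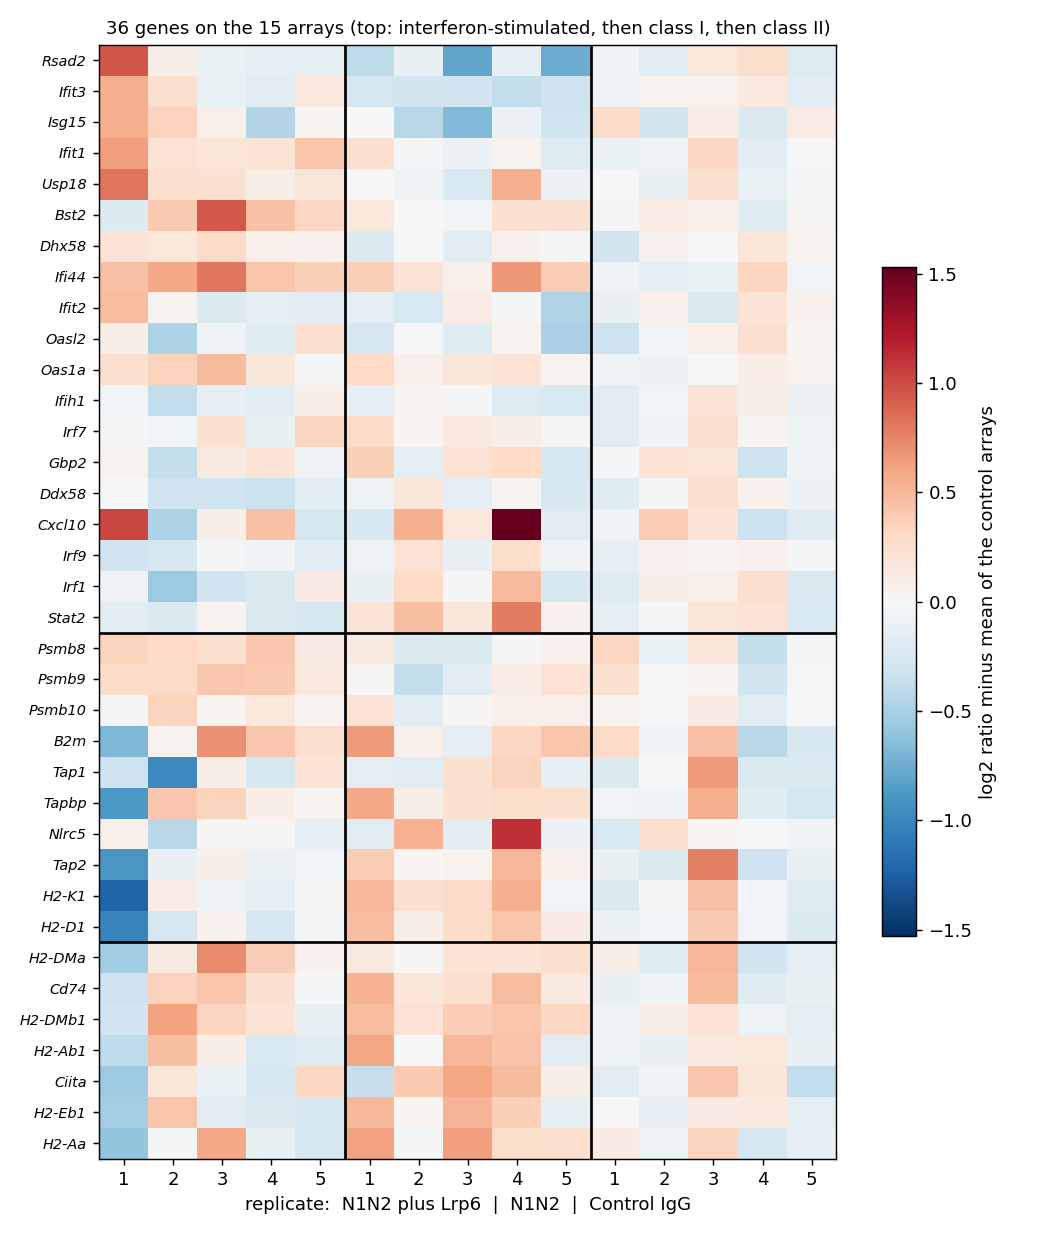
Log2 ratio of each of the 36 genes (rows) on each of the 15 arrays (columns, with N1N2 plus Lrp6, then N1N2, then control), minus the mean of the 5 control arrays. Replicate 1 of N1N2 plus Lrp6 is low in most class I and class II rows and high in several interferon-stimulated rows, and control replicate 3 is high in most class I and class II rows.

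Over the MHC genes, N1N2 plus Lrp6 replicate 1 and control replicate 3 stood apart from their groups. Over the 19 interferon-stimulated genes these were the highest arrays of their groups. The mean log2 ratio there was 0.375 on N1N2 plus Lrp6 replicate 1 and 0.078 to 0.218 on replicates 2 to 5. It was 0.206 on control replicate 3 and -0.005 to 0.145 on the other control arrays. The mean log2 ratio over the 10 class I genes was 1.96 on N1N2 plus Lrp6 replicate 1 and 2.38 to 2.59 on replicates 2 to 5, 2.41 to 2.77 on N1N2 arrays, and 2.76 on control replicate 3 against 2.20 to 2.39 on the other control arrays. Over the 7 class II genes it was 3.79 on N1N2 plus Lrp6 replicate 1 and 4.19 to 4.56 on the rest, 4.35 to 4.69 on N1N2 arrays, and 4.57 on control replicate 3 against 4.08 to 4.22 on the other control arrays. So 1 array in each of 2 groups stood apart in the direction that sets N1N2 plus Lrp6 and N1N2 apart and brings N1N2 and control together. The low values of N1N2 plus Lrp6 replicate 1 were not particular to these genes. In lists described below it was the lowest of the 15 arrays over other antigen presentation genes (mean 0.995). The same held over myeloid (-0.214), stromal (-3.28), crypt epithelium (4.881) and villus enterocyte (6.393) markers, but not over lymphocyte markers (1.468). N1N2 plus Lrp6 replicate 1 was also the dimmest array, with 57.2% of spots well above background. Its part in the results was not tested beyond leaving the array out.

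H2-D1 encodes a classical class I heavy chain. Its log2 ratios were 2.63, 3.39, 3.71, 3.38 and 3.62 on N1N2 plus Lrp6 arrays, 4.11, 3.73, 3.92, 4.07 and 3.77 on N1N2 arrays, and 3.53, 3.59, 4.05, 3.60 and 3.43 on control arrays. The N1N2 plus Lrp6 arrays all lay below the N1N2 arrays, replicate 1 by the widest margin, and control overlapped both. H2-D1 fell by 0.58 on the log2 scale (SE 0.17, 1.49-fold lower, adjusted p = 0.031). Without N1N2 plus Lrp6 replicate 1 the difference was -0.40 (adjusted p = 0.048). The call held under 20 of 29 alternatives and was lost with median centring (-0.13, adjusted p = 0.65) and with arrays scaled to each other (-0.24, adjusted p = 0.20). H2-D1 belongs to a family of closely similar class I genes that includes H2-K1 and the H2-Q genes, and a probe of one may bind transcripts of another.

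H2-K1, the other classical heavy chain measured, had log2 ratios of 2.86, 4.20, 4.02, 3.95 and 4.11 on N1N2 plus Lrp6 arrays, 4.60, 4.34, 4.38, 4.63 and 4.05 on N1N2 arrays, and 3.86, 4.11, 4.53, 4.05 and 3.89 on control arrays. Replicate 1 of N1N2 plus Lrp6 was far below the rest, and the other 4 overlapped N1N2. The difference from N1N2 was -0.57 (SE 0.22, adjusted p = 0.087), as large as that of H2-D1 but with a wider spread. B2m, the light chain of every class I molecule, had 0.72, 1.47, 2.11, 1.83 and 1.67 on N1N2 plus Lrp6 arrays, 2.07, 1.49, 1.27, 1.72 and 1.83 on N1N2 arrays, and 1.71, 1.34, 1.85, 0.98 and 1.16 on control arrays. The B2m groups overlapped, with a difference of -0.12 (SE 0.23, adjusted p = 0.81) from N1N2.

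Psmb9, a catalytic subunit that replaces its constitutive counterpart in the immunoproteasome, ran the other way from the heavy chains. Its log2 ratios were 2.78, 2.80, 2.90, 2.89 and 2.64 on N1N2 plus Lrp6 arrays, 2.52, 2.14, 2.33, 2.61 and 2.71 on N1N2 arrays, and 2.75, 2.49, 2.54, 2.22 and 2.49 on control arrays. N1N2 plus Lrp6 replicate 5 lay below N1N2 replicate 5, so the groups overlapped. Psmb9 rose by 0.34 over N1N2 (SE 0.11, 1.27-fold, adjusted p = 0.049), close to the threshold, and passed under 11 of 29 alternatives, with no change of direction in any. Without N1N2 plus Lrp6 replicate 1 the adjusted p was 0.074. Psmb8, the second subunit of this kind, differed by a like amount, 0.34 (SE 0.12, adjusted p = 0.056), and Psmb10, the third, by 0.06 (SE 0.09, adjusted p = 0.70).

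The peptide transporter genes lie with the heavy chains in the sign of their differences, but none passed. Relative to N1N2 crypts, Tap2 differed by -0.43 (SE 0.21, adjusted p = 0.19), Tap1 by -0.27 (SE 0.21, adjusted p = 0.46) and Tapbp, which tethers class I molecules to the transporter, by -0.28 (SE 0.21, adjusted p = 0.42). Nlrc5, the class I transactivator, had log2 ratios of 1.24, 0.74, 1.18, 1.17 and 1.03 on N1N2 plus Lrp6 arrays, 1.00, 1.69, 1.00, 2.28 and 1.07 on N1N2 arrays, and 0.93, 1.42, 1.19, 1.16 and 1.10 on control arrays. N1N2 replicates 2 and 4 were the highest of the 15 arrays and the other 3 N1N2 arrays lay among the rest. The difference between N1N2 plus Lrp6 and N1N2 was -0.33 (SE 0.21, adjusted p = 0.32). A second, dimmer Nlrc5 probe gave -0.05 in this comparison. In N1N2 against control the probe used gave 0.25 and the second probe 0.03.

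Over the class I set the median difference between N1N2 plus Lrp6 and N1N2 was -0.28, with 3 of 10 genes above 0 and 7 below, and it was -0.01 with median centring and -0.07 with arrays scaled to each other. Between N1N2 and control it was 0.23, with 8 of 10 above 0, and it took the other sign with median centring (-0.07) and with arrays scaled to each other (-0.10). Between N1N2 plus Lrp6 and control it was -0.04. The medians over all features in the same 3 comparisons were -0.001, 0.002 and 0.01.

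All 7 class II genes had differences below 0 in N1N2 plus Lrp6 against N1N2 (median -0.32) and above 0 in N1N2 against control (median 0.27), and none passed. Those medians took the other sign with arrays scaled to each other (0.20 and -0.19), and the first also with median centring (0.06). With median centring the N1N2 against control median was 0.05, with 4 of 7 genes above 0 and 3 below. Both comparisons hold the same N1N2 arrays, so they are not separate evidence. Ciita, the class II transactivator, had log2 ratios of 1.43, 2.17, 1.88, 1.73 and 2.31 on N1N2 plus Lrp6 arrays, 1.63, 2.38, 2.57, 2.47 and 2.07 on N1N2 arrays, and 1.81, 1.93, 2.40, 2.17 and 1.60 on control arrays. The groups overlapped and the difference was -0.33 (SE 0.20, adjusted p = 0.32) between N1N2 plus Lrp6 and N1N2, and 0.24 (SE 0.20, adjusted p = 0.48) between N1N2 and control.

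Cd74, the invariant chain that guides class II molecules to the endosome, had log2 ratios of 4.72, 5.39, 5.46, 5.27 and 5.01 on N1N2 plus Lrp6 arrays, 5.57, 5.23, 5.30, 5.51 and 5.17 on N1N2 arrays, and 4.92, 4.97, 5.52, 4.85 and 4.92 on control arrays. Every N1N2 array lay above 4 of the 5 control arrays, and control replicate 3 lay among the N1N2 arrays. The N1N2 minus control difference was 0.32 (SE 0.15, adjusted p = 0.20). H2-Ab1, a class II beta chain, had 4.93, 5.78, 5.41, 5.09 and 5.12 on N1N2 plus Lrp6 arrays, 5.90, 5.31, 5.82, 5.75 and 5.15 on N1N2 arrays, and 5.24, 5.20, 5.46, 5.47 and 5.20 on control arrays. N1N2 replicates 1, 3 and 4 stood above all control arrays and replicates 2 and 5 did not (0.27, SE 0.17, adjusted p = 0.33). For the remaining class II genes the N1N2 minus control differences were 0.35 for H2-Aa and 0.26 for H2-Eb1, both peptide-binding chains, and 0.16 for H2-DMa and 0.36 for H2-DMb1, the pair that loads peptides.

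The count of 0 between N1N2 and control depended on which arrays were kept, and the count over all features moved too. With control replicate 3 and N1N2 plus Lrp6 replicate 1 both left out, 7 of the 36 passed in N1N2 against control: Cd74, H2-D1, H2-DMb1, H2-K1, Tap2 and Tapbp rose and Ifit3 fell. In that setting 17.3% of all features passed (9.19% rose and 8.12% fell). The 6 of 36 that rose are a larger share than over all features, and the 1 of 36 that fell a smaller one. That setting was chosen after the data were seen, and control replicate 3 was picked for its values of these same genes, so the 7 are no independent evidence. Leaving out 1 array at a time gave 0 to 3 genes: Cd74 without control replicate 3, Ifi44 without control replicate 4 or N1N2 replicate 3, H2-DMb1 without N1N2 plus Lrp6 replicate 2, and H2-DMb1, Ifit3 and Rsad2 without N1N2 plus Lrp6 replicate 1. With 1 array left out, 6.46 to 16.3% of all features passed. Within the slide that held both groups, none of the 36 passed, where 1.09% of all features passed. Between N1N2 plus Lrp6 and N1N2, 4 genes passed without both arrays (Bst2 in place of Psmb9), where 13.4% of all features passed. Without N1N2 replicate 3 or 4, 2 passed, Ifit3 and Stat2, where 14.3% and 10.5% of all features passed. Ifi44 passed in N1N2 plus Lrp6 against control without N1N2 plus Lrp6 replicate 5, where 1.46% of all features passed.

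The Y box, an element shared by MHC promoters and searched as CTGATTGG on both strands, was in 4 of 8 class I windows, 2 of 4 class II windows and 1 of 17 interferon-stimulated windows, and in 4.1% of all promoters. The stretches below come from the class I genes that changed and from the class II chains with a match, and capitals mark it.
H2-D1 (chr17:35263021-35263068, plus strand): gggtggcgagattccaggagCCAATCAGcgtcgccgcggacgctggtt
Psmb9 (chr17:34187331-34187361, minus strand): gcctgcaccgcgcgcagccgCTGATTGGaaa
H2-Aa (chr17:34287847-34287894, minus strand): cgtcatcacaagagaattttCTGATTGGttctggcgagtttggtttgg
H2-Eb1 (chr17:34305785-34305832, plus strand): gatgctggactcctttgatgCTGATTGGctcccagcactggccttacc

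The Psmb9 match lies in a window that overlaps that of Tap1, which is read from the other strand, so both genes count it. H2-D1 and Psmb9, with a match each, moved in opposite directions between N1N2 plus Lrp6 and N1N2.

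Genes of the same pathways outside the 38 were read from lists. Of 23 interferon receptors and signalling genes, 3 rose and none fell in N1N2 against control (6.57% of all features rose and 5.15% fell): Socs3, Socs1 and Irf8. Socs1 and Socs3 are feedback inhibitors of Jak kinases, and Irf8 is an interferon-regulated transcription factor best known from myeloid cells. Socs3 had log2 ratios of -0.52, -0.27, -0.68, -0.36 and -0.66 on N1N2 plus Lrp6 arrays, 0.38, 0.37, 1.17, -0.04 and 0.28 on N1N2 arrays, and -0.37, -0.52, -0.40, -0.59 and -0.16 on control arrays. All N1N2 arrays lay above all arrays of the other 2 groups. Socs3 rose by 0.84 over control (SE 0.17, 1.79-fold, adjusted p = 0.0055), and fell by 0.93 in N1N2 plus Lrp6 against N1N2 (SE 0.17, adjusted p = 0.0026). The second call held under all 29 alternatives.

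Socs1 had log2 ratios of 0.61, 0.22, 0.30, 0.41 and -0.32 on N1N2 plus Lrp6 arrays, 0.38, 0.18, 0.82, 0.50 and 0.42 on N1N2 arrays, and -0.34, -0.08, -0.13, -0.11 and -0.17 on control arrays. It rose by 0.63 in N1N2 crypts over control (SE 0.15, adjusted p = 0.013), with no overlap. Irf8 rose by 0.33 in the same comparison (SE 0.08, adjusted p = 0.011), but with arrays scaled to each other its difference was -0.05. Within the shared slide none of the 3 passed, with Socs3 at 0.75 (adjusted p = 0.066), Socs1 at 0.42 (0.12) and Irf8 at 0.41 (0.13). Those differences rest on N1N2 replicates 1 and 2 and control replicates 4 and 5. In that setting 1.09% of all features passed, against 11.7% in the reported fit. With median centring Socs3 passed (adjusted p = 0.045), and Socs1 (0.17) and Irf8 (0.49) did not. When N1N2 plus Lrp6 was set against N1N2, 1 of 23 rose (Irf2) and 1 fell (Socs3). Over all features 9.44% rose and 7.26% fell there. In N1N2 plus Lrp6 against control none of the 23 passed. An unadjusted p under 0.05 in limma was reached by 4 of the 23 there, against 13% of all features.

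Of the interferon genes themselves, 7 of 8 had a probe and 3 passed the filter, Ifng, Ifnl3 and Ifna2, of which none passed the test in any comparison (none at an unadjusted p under 0.05). Ifnb1, Ifnk and Ifne were not well above background on any of the 15 arrays. Of 41 other interferon-stimulated genes, 3 rose and 3 fell in N1N2 against control, 2 rose and 2 fell in N1N2 plus Lrp6 against N1N2, and none passed in N1N2 plus Lrp6 against control (5 at an unadjusted p under 0.05). The shares over all features were 6.57% and 5.15% in the first of these comparisons and 9.44% and 7.26% in the second. So these counts are near or below the background. In N1N2 plus Lrp6 against control 13% of all features had an unadjusted p under 0.05 in limma. Isg20, an antiviral exonuclease, had log2 ratios of -2.03, -1.83, -1.93, -2.16 and -2.43 on N1N2 plus Lrp6 arrays, -1.63, -1.34, -1.74, -1.42 and -1.50 on N1N2 arrays, and -2.14, -2.07, -2.00, -2.49 and -2.20 on control arrays. N1N2 arrays lay above all others. Isg20 fell by 0.55 in N1N2 plus Lrp6 against N1N2 (SE 0.12, adjusted p = 0.0065) and rose by 0.65 in N1N2 against control (SE 0.12, adjusted p = 0.0028). Within the shared slide the second difference was 0.86 (adjusted p = 0.037), and with median centring both calls were lost (adjusted p = 0.21 and 0.12). Ifitm2, which blocks virus entry, rose by 0.54 in N1N2 plus Lrp6 against N1N2 (adjusted p = 0.014), and Rtp4, a transporter chaperone, fell by 0.54 in N1N2 against control (adjusted p = 0.039). Rtp4 also rose by 0.505 in N1N2 plus Lrp6 against N1N2 (adjusted p = 0.042), a call that held under 7 of 29 alternatives. The Rtp4 call in N1N2 against control held under 15 of 30 alternatives with no change of direction. That second call was lost within the shared slide (adjusted p = 0.17), with median centring (0.09), with the replicate block (0.058) and with arrays scaled to each other (0.089).

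**Figure D4:**
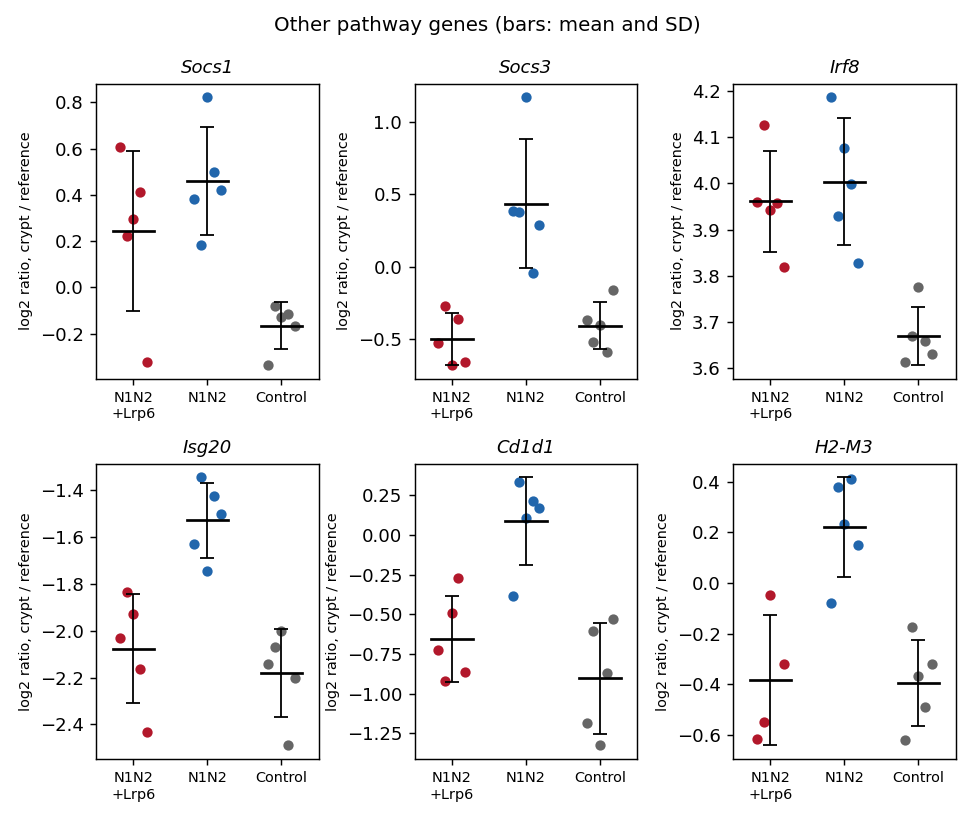
Log2 ratio of crypt over reference RNA (vertical axis, a separate scale per gene) on each array for 6 genes of the surrounding pathways in N1N2 plus Lrp6, N1N2 and control crypts, with mean and SD as bars. N1N2 arrays lie above all control arrays in each panel, and above all N1N2 plus Lrp6 arrays for Socs3 and Isg20.

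Of 36 other antigen presentation genes, 3 rose and 1 fell in N1N2 against control, none rose and 6 fell in N1N2 plus Lrp6 against N1N2, and none passed in N1N2 plus Lrp6 against control (4 at an unadjusted p under 0.05). Over all features 6.57% rose and 5.15% fell in the first comparison, and 9.44% rose and 7.26% fell in the second. In the third, 13% of all features had an unadjusted p under 0.05 in limma. The gene that fell in N1N2 against control was Ctse, the endosomal protease cathepsin E, with a log2 difference of -1.68 (SE 0.38, adjusted p = 0.010). Its log2 ratios ran from -2.26 to -1.30 on N1N2 arrays and from -1.39 to 1.03 on control arrays, and the groups overlapped. Ctse is named for its size and was chosen after its values were seen. Cd1d1, which presents lipids to natural killer T cells, had log2 ratios of -0.73, -0.92, -0.49, -0.27 and -0.86 on N1N2 plus Lrp6 arrays, -0.38, 0.33, 0.11, 0.21 and 0.17 on N1N2 arrays, and -1.18, -0.61, -1.33, -0.87 and -0.53 on control arrays. It rose by 0.99 in N1N2 crypts over control (SE 0.17, 1.99-fold, adjusted p = 0.0021). No N1N2 array overlapped the control arrays, and N1N2 replicate 1 lay below the highest N1N2 plus Lrp6 array. The endoplasmic reticulum chaperone Calr rose by 0.99 (SE 0.24, adjusted p = 0.016) and the non-classical heavy chain H2-M3 by 0.61 (SE 0.12, adjusted p = 0.0063) in the same comparison. Within the shared slide none of the 3 passed (adjusted p of 0.25 for Cd1d1, 0.056 for Calr and 0.18 for H2-M3), where 1.09% of all features passed. With median centring none of the 3 passed either (0.057, 0.058 and 0.20). In N1N2 plus Lrp6 against N1N2, Cd1d1 fell by 0.74 (adjusted p = 0.0097) and H2-M3 by 0.60 (adjusted p = 0.0073). Those 2 calls were lost with median centring (0.10 and 0.16), and Calr did not pass (adjusted p = 0.079). The oxidoreductase Pdia3 of the peptide-loading complex fell in N1N2 plus Lrp6 against N1N2 by 0.71 (SE 0.17, adjusted p = 0.010) and H2-Q7 by 0.62 (SE 0.19, adjusted p = 0.035), and both calls were lost with median centring (adjusted p = 0.073 and 0.53). H2-Q7 is nearly identical to its neighbours in the H2-Q cluster, so its probe may bind their transcripts. H2-M3 lacked a value on 1 N1N2 plus Lrp6 array.

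Immune cells carry many of these genes, so markers of other cell types were read beside them. The shares over all features were 6.57% rising and 5.15% falling in N1N2 against control. They were 9.44% and 7.26% in N1N2 plus Lrp6 against N1N2, and 0.221% and 0.155% in N1N2 plus Lrp6 against control. Of 18 lymphocyte markers, Cd3e and Gzma fell and Nkg7 rose in N1N2 against control. In that comparison 16 of the 18 differences were below 0 and 2 above (median -0.32). Of the 18, 8 had an unadjusted p under 0.05 in limma, against 26.2% of all features. In N1N2 plus Lrp6 against control 16 of 18 were also below 0 (median -0.36), and 7 had such a p, against 13%. The mean log2 ratio over the list ranged from 1.42 to 1.73 on N1N2 plus Lrp6 arrays, 1.39 to 2.19 on N1N2 arrays and 1.69 to 2.17 on control arrays. Of 17 myeloid and dendritic cell markers, Itgax fell in N1N2 against control, and the list ranged from -0.21 to 0.18 on N1N2 plus Lrp6 arrays, 0.06 to 0.28 on N1N2 arrays and 0.11 to 0.33 on control arrays. None of either list passed in N1N2 plus Lrp6 against N1N2 (2 at an unadjusted p under 0.05 in each, against 29.1% of all features). Nor did any pass in N1N2 plus Lrp6 against control. There 13 of 17 myeloid markers were below 0 and 4 above (median -0.19), and 6 had an unadjusted p under 0.05. In N1N2 against control 11 were below 0 and 6 above (median -0.08), and 6 had such a p. Of 13 stromal, endothelial and muscle markers, 5 fell in N1N2 plus Lrp6 against N1N2, 2 in N1N2 against control and 2 in N1N2 plus Lrp6 against control, with list means of -3.28 to -2.66 on N1N2 plus Lrp6 arrays, -2.58 to -2.34 on N1N2 arrays and -2.49 to -1.83 on control arrays. The crypt epithelium list ranged from 4.88 to 5.59 on N1N2 plus Lrp6 arrays, 5.14 to 5.74 on N1N2 arrays and 5.33 to 5.51 on control arrays, with defining markers of the epithelium present on all arrays. Of its 13 markers, Krt18, a keratin, rose by 0.83 and Ascl2, a stem cell factor, fell by 1.45 in N1N2 against control. In N1N2 plus Lrp6 against N1N2 Krt18 fell by 0.58 and Ascl2 rose by 1.32, and the stem cell marker Lgr5 fell by 1.21 in N1N2 plus Lrp6 against control. Of 11 villus enterocyte markers only Ada passed, falling in N1N2 against control, and the list ranged from 6.39 to 7.45 on N1N2 plus Lrp6 arrays, 6.80 to 7.64 on N1N2 arrays and 6.83 to 7.21 on control arrays. The part of these cell types in the results was not tested.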

How the data were processed

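Crypt RNA of 3 groups of 5 samples was measured on 15 arrays of 2 colours against a common reference, always with the crypt RNA in red. Per the file headers, scanning software was Feature Extraction (version 11.0.1.1) and the probe design used mouse build mm9. For each spot and channel the authors deposited a median intensity, with a median of the background around it. They also deposited a log10 ratio of red to green that the scanning software had already corrected for background and dye. Mean intensities are not in the files and medians were used. A further deposited table holds log2 values, for which the submitters' processing notes name R 3.0.0 and limma (version 3.6.7) without describing the steps. Its columns correlated with the values computed here with the same sign on every array, so its scale and direction are log2 of crypt over reference, with column medians of 0.0144 to 0.0286.

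The work here used R 4.3.3 with limma (3.58.1) and the package data.table (1.17.8). Of 44397 spots on an array, 306 to 642 spots per array with the scanner's outlier or non-uniformity flags were left out before background correction. Background was corrected with normexp (offset 50), ratios were normalized by loess within arrays with control spots at weight 0, and spots of a probe were averaged. The filter kept 28488 of 39429 probes, those well above background in the crypt channel in at least 1 group, on 4 or more of its 5 arrays. Names came from the files and from RefSeq accessions of GRCm38.p6, used for names and promoter windows only. Of the probes 26581 had a name, and 3838 genes had several kept probes. This gave 23939 features, 371 of them lacking a value on some array.

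The groups were compared in 1 fit (lmFit and eBayes) with two-sided p-values adjusted by Benjamini-Hochberg over all features, threshold 0.05. The script was tested on simulated data. The genes, lists and rules were chosen with earlier results of these data known. Values per array are given for genes past the threshold and for Irf1, Irf7, Stat2, Isg15, Ciita, Nlrc5, Cd74, H2-Ab1, H2-K1 and B2m. From each list of other pathway genes at most 5 per comparison are named with values, those with the largest difference among genes past the threshold whose groups do not overlap. The rule also names 1 further gene, which is not reported here. Further genes in the text are named where a count is small, and were chosen after their values were seen. Alternatives covered the background correction, normalization, the scanner's ratio, the deposited table, the filter, flags, the choice of probe, slide, replicate number, the groups fitted and each array left out. Many of them leave a given difference unchanged and can move only its adjusted p. Counts of alternatives under which a call held are therefore not counts of separate checks. Groups share replicate numbers, but only 4 of 15 same-numbered pairs correlated over 0.1 (range -0.439 to 0.626). The reported fit did not treat the numbers as pairs. Such correlations cannot exclude a pairing, which the labels do not state.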

Additional observations from a re-analysis of the deposited data

Results flagged for a closer look

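In 11 of the 108 gene-by-group sets of 5 arrays, 1 array lay far from the other 4 by Dixon's 95% criterion, which picks out about 1 set in 20 by chance. All values are log2 ratios, and the nearest array of the same group is given beside each.

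The N1N2 plus Lrp6 replicate 1 array, the dimmest of the 15, accounted for 4 of them. It was low for H2-K1 (2.86, nearest 3.95) and for the transporter gene Tap2 (0.96, nearest 1.74). It was high for the antiviral gene Rsad2 (0.18, nearest -0.68) and for Usp18 (-1.03, nearest -1.60).

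In N1N2 crypts, replicate 4 was high for Usp18 (-1.29, nearest -1.85).

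The control replicate 3 array accounted for 5 and was high in each: H2-D1 (4.05, nearest 3.60), Tap1 (3.24, nearest 2.59), Tap2 (2.62, nearest 1.74), Tapbp (2.44, nearest 1.84) and Cd74 (5.52, nearest 4.97). It had 77.9% of spots well above background, inside the range of the other control arrays. Control replicate 4 was high for Ifi44 (-3.01, nearest -3.38).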

How the results depend on the processing

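Count of the 36 genes passing. The share of all features that passed in the same setting stands in brackets. In N1N2 plus Lrp6 against N1N2 the count was 4 in the reported analysis (16.7%) and 2 with the scanner log ratio (14.9%). It was 13 with slide as a random block (29.4%, consensus correlation -0.182) and 2 to 6 when 1 array was left out (10.5 to 19.8%). In N1N2 against control it was 0 in the reported analysis (11.7%), 3 with the scanner-flagged spots kept (10.2%) and 3 with slide as a random block (17.2%). It was 2 with only these groups fitted (17.1%), 1 with arrays scaled to each other (9.92%) and 0 to 3 when 1 array was left out (6.46 to 16.3%). Without control replicate 3 and N1N2 plus Lrp6 replicate 1 together it was 7 (17.3%). For N1N2 plus Lrp6 against control it was 0 in the reported analysis (0.376%) and 7 with slide as a random block (12.2%). It was 0 to 1 when 1 array was left out (0.109 to 1.46%). With the replicate block the counts were 3, 0 and 0 in the same order (15.5, 10.2 and 0.184%), and the call lost was Psmb9. Scaling the arrays, and leaving out both arrays, were chosen after seeing the data. With slide as a random block the correlation within slides was negative, which a shared slide effect would not give. Slides were nearly nested in groups, so the larger counts there are no sign that allowing for slide strengthens the calls.

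Medians of the sets, in N1N2 plus Lrp6 against N1N2: median centring gave 0.272 for interferon-stimulated, -0.01 for class I and 0.055 for class II genes, and scaled arrays gave -0.066 for class I and 0.195 for class II. In N1N2 against control, median centring gave -0.147 for interferon-stimulated and -0.072 for class I, scaled arrays -0.096 for class I and -0.189 for class II, and flagged spots kept 0.557 for class II. Against control, the N1N2 plus Lrp6 medians with flagged spots kept were 0.171 for class I and 0.484 for class II. With 1 array left out, the interferon-stimulated medians ran from 0.056 to 0.159, -0.02 to 0.079 and -0.019 to 0.14 in these 3 comparisons (the -0.019 without N1N2 plus Lrp6 replicate 1), class I from -0.358 to -0.153, 0.089 to 0.315 and -0.1 to 0.062, and class II from -0.392 to -0.207, 0.212 to 0.365 and -0.094 to 0.049. Irf8 turned to -0.05 in N1N2 against control with scaled arrays. The causes of these shifts were not tested. The Aquantile setting leaves ratios as they are by construction, so it gave the reported values.

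Over all features, calls in N1N2 against control numbered 2806, against 1252 with median centring, 261 with slide as a fixed block, 4143 (17.3%) without control replicate 3 and N1N2 plus Lrp6 replicate 1 together, and 1546 to 3903 with 1 array left out. Calls between N1N2 plus Lrp6 and N1N2 numbered 3999, against 7041 with slide as a random block, 2335 with flagged spots kept and 2515 to 4742 with 1 array left out. Between N1N2 plus Lrp6 and control they numbered 90, against 2915 with slide as a random block and 26 to 349 with 1 array left out. The share of calls that rose was 56.5% in N1N2 plus Lrp6 against N1N2 and 77.2% with median centring, and 56.1% in N1N2 against control and 45.8% with median centring, where keeping flagged spots gave 70.5%.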
